A study of Mus musculus with 16 samples.

Results

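Arginine metabolism was described through 10 genes: the arginases Arg1 and Arg2, the inducible nitric oxide synthase Nos2, the cationic amino acid transporters Slc7a1 and Slc7a2, the citrulline recycling enzymes Ass1 and Asl, and Odc1, Srm and Oat, which use ornithine or its product putrescine. They were chosen by name, with earlier results of these data known, and matched to the gene name that the scanner files give each probe. Where a gene had several probes, the one with the highest mean over all arrays was read. All 10 were among the 24278 genes tested, and 15 probes carried their names. The study hybridised RNA of sorted pancreatic macrophages to 16 one-colour arrays, 4 on each of 4 slides. The groups were YFP+ cells of tumors (5 arrays), YFP- cells of tumors (5), YFP+ cells of normal pancreas (3) and YFP- cells of normal pancreas (3). The labels give C57/B6 as background, female sex and an age of 8 to 10 weeks for the mice, and no genotype. The design text names wild-type mice, KPC mice (a genetic model of pancreatic cancer) and FLT3-CRE/LSL-YFP mice, but per the treatment text tumors were implanted, so the origin of the tumors is not settled. In FLT3-CRE/LSL-YFP mice a Cre under Flt3 control removes a stop cassette before YFP, which marks descendants of Flt3-expressing blood progenitors. Cells without YFP can therefore be of another descent or have escaped recombination, and the labels do not tell these apart. Each title carries a number, 5 among the tumor samples and 3 among the normal ones, taken here as the mouse although the labels do not state it. If the numbers are not separate mice, the p-values measure only the spread between these samples.

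Arginine enters a macrophage through cationic amino acid transporters and then meets competing enzymes. Arginase splits it into urea and ornithine, from which ornithine decarboxylase and spermidine synthase make polyamines and ornithine aminotransferase makes the precursor of proline. Inducible nitric oxide synthase turns it into nitric oxide and citrulline, and argininosuccinate synthase and lyase rebuild arginine from citrulline. Mouse macrophages are known for high Arg1 after interleukin-4 or in tumors and for high Nos2 after interferon and bacterial products.

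The probes behind the arginase and Asl values are printed because their values rest on what these letters capture. The arginases differed widely by tissue, while Asl did not pass the threshold in either population. A second Odc1 probe is printed beside them. The Odc1 values below come from another probe except where the printed one is named. All are 60 bases long, as the array design gives them, in lower case throughout. The position of the Arg1 probe (A_51_P303160) is chr10:24636194-24636253 on the minus strand of mm9, that of the Arg2 probe (A_52_P374897) chr12:80252972-80253031 on the plus strand, and that of the Odc1 probe A_52_P436238 chr12:17554799-17554858 on the plus strand. The header gives no position for the Asl probe, and none of the headers gives an exon or UTR. The Arg1 and Arg2 probes share no run longer than 7 bases.
Arg1: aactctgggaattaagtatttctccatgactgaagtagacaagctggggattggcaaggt
Arg2: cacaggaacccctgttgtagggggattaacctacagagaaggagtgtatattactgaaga
Odc1: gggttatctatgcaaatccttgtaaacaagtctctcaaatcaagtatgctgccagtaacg
Asl: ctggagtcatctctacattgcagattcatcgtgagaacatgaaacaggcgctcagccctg

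For Ass1 and Odc1, which differed by tissue in both populations, the 250 bases before the gene start were available from RefSeq (GRCm38.p6), whose promoter table matched 4 of the 10 genes. Each of 2 common promoter motifs was searched on both strands. The E-box CACGTG reads the same on either strand and occurs in 6.02% of all 32851 windows of this length. The GC box GGGCGG, or CCGCCC on the other strand, occurs in 32.7% of them. Ass1 (chr2:31470020-31470269, plus strand) holds 1 E-box, in capitals, at position -36 from the gene start, and 1 GC box, left in lower case.
Ass1: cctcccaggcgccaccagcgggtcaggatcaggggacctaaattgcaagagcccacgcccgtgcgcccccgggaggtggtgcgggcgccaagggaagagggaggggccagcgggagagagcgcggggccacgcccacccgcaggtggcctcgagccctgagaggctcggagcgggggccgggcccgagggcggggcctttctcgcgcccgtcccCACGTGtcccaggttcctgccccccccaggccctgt
Odc1 (chr12:17544623-17544872, plus strand) holds no E-box in this window and 4 GC boxes, in capitals, at positions -238, -116, -88 and -15.
Odc1: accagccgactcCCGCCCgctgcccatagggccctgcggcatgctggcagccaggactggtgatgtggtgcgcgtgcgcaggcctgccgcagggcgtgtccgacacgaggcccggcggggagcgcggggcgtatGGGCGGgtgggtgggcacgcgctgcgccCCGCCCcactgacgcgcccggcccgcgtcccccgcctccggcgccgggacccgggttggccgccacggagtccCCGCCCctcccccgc
A match in these windows describes the letters and says nothing of binding.

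Signals are given as log2 of the processed red signal relative to the 75th percentile of the same array, so that 0 is that percentile and a difference of 1 is a factor of 2. That percentile lay between 2175 and 3409 intensity units, 64.9% to 75.4% of probes were well above background by the scanner software, and no spot was saturated. The defining markers of macrophages were present: 8 of 8 listed genes, among them Csf1r and Adgre1, were well above background on every array. Their summed signal, in units of the 75th percentile, spanned 182 to 245 for tumor YFP+ cells and 180 to 261 for tumor YFP- cells, against 231 to 249 for normal YFP+ cells and 207 to 351 for normal YFP- cells. Markers of other cells moved with the groups. The 8 acinar markers, mostly digestive enzymes of the exocrine pancreas, summed to 3.48 to 9.25 for tumor YFP+ cells and 6.22 to 13.9 for tumor YFP- cells, against 251 to 366 for normal YFP+ cells and 316 to 695 for normal YFP- cells. The 8 fibroblast markers summed to 2.30 to 6.98 for tumor YFP+ cells and 56.0 to 91.1 for tumor YFP- cells, against 3.15 to 15.4 for normal YFP+ cells and 5.77 to 65.8 for normal YFP- cells. Lum and Pdgfra were not well above background on any tumor YFP+ array, nor were Pdgfra and Pdgfrb on any normal YFP+ array. Ductal or tumor epithelial markers summed to 4.25 to 6.30 for tumor YFP+ cells and 15.6 to 29.0 for tumor YFP- cells, against 2.44 to 3.47 for normal YFP+ cells and 4.03 to 5.02 for normal YFP- cells. Mast cell or basophil markers summed to 1.27 to 3.67 in tumor YFP+ arrays and 8.22 to 51.0 in tumor YFP- arrays, against at most 4.03 in normal arrays. B or plasma cell markers were brightest in tumor YFP+ arrays, at 40.4 to 70.2, against 8.32 to 24.3 in tumor YFP- arrays and at most 8.75 in normal arrays. Neutrophil markers summed to 29.7 to 33.6 for tumor YFP+ cells and 39.3 to 46.0 for tumor YFP- cells, against 28.5 to 34.7 for normal YFP+ cells and 31.5 to 36.7 for normal YFP- cells. Within that list S100a9 averaged 1.86 ± 0.42 in tumor YFP+ arrays (SD, n = 5) and -2.71 ± 3.93 in normal YFP+ arrays (SD, n = 3), and 2.87 ± 0.51 in tumor YFP- arrays (SD, n = 5) and -4.34 ± 0.53 in normal YFP- arrays (SD, n = 3). At an adjusted p under 0.05, 3 of 7 neutrophil markers were higher in tumor YFP+ cells and 5 in tumor YFP- cells. Of all genes 6.03% and 8.03% were higher. None of the 7 was lower, and their median log2 differences were 0.89 and 3.49. Neutrophil markers were not alone in this. Of 7 ductal or tumor epithelial markers 3 and 5 were higher, and of 7 mast cell or basophil markers 0 and 7. Of 8 acinar markers 7 and 8 were lower. The part of these cells in the differences below was not tested. In such bulk samples, fewer cells of a type and less RNA per cell cannot be told apart.

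**Figure D1:**
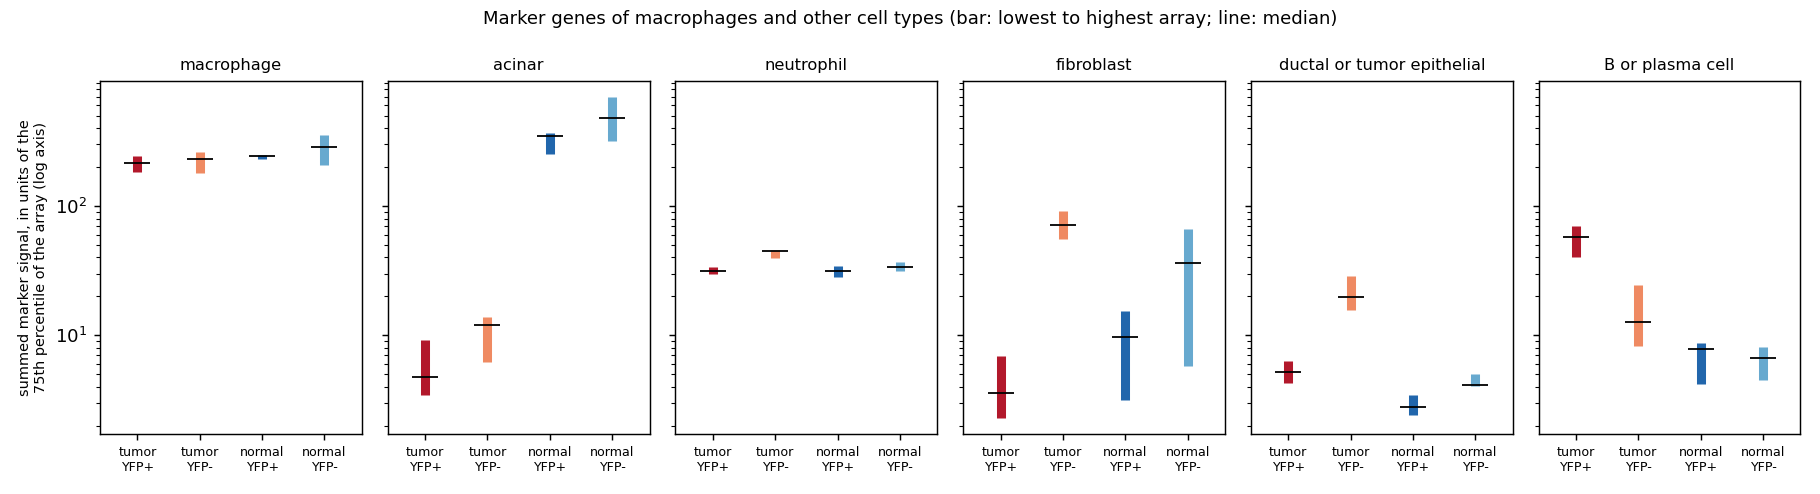
Summed signal of marker genes of macrophages and 5 other cell types, in units of the 75th percentile of the array, on a log axis, for the 4 groups; bars run from the lowest to the highest array and the line is the median. Macrophage markers lie between 180 and 351 in all groups, while acinar markers are at most 13.9 in tumor arrays and at least 251 in normal arrays.

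Arginase, one arginine transporter, argininosuccinate synthase and ornithine decarboxylase were higher in tumor macrophages than in macrophages of normal pancreas, in both populations. Arg1 led, at 123-fold in YFP+ cells and 139-fold in YFP- cells, sizes that rest on normal signals not far above background. Among YFP+ cells, 7 of the 10 genes were higher in tumor and none was lower at an adjusted p under 0.05, against 6.03% of all genes tested higher and 12.1% called in either direction. These 7 were Arg1, Arg2, Nos2, Slc7a2, Ass1, Odc1 and Srm, and for each of them every tumor array lay above every normal array, as it did for 10.1% of all genes. Among YFP- cells, 6 of the 10 were higher and none lower, against 8.03% of all genes higher and 15.8% called in either direction. These 6 were Arg1, Arg2, Slc7a1, Slc7a2, Ass1 and Odc1, again with no overlap between the arrays, which held for 9.78% of all genes. Because the 10 genes were chosen with earlier results of these data known, the shares of all genes are no test of the list. The median log2 difference of the 10 genes was 1.48 in YFP+ cells, with -0.04 over all genes tested, and 1.40 in YFP- cells, with -0.16 over all genes. That second shift of all genes exceeds 0.1, and the differences in YFP- cells stand against it. With slide as a block, 6 of the 10 passed in YFP+ cells, Nos2 being the one lost, and 6 in YFP- cells. Each of these called differences was above 0 on all 3 slides that held arrays of both tissues for that population, and its range over those slides is given with each gene. All differences come from 1 limma model of the 16 arrays, and p-values were adjusted by the Benjamini-Hochberg method across 24278 genes.

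**Figure D2:**
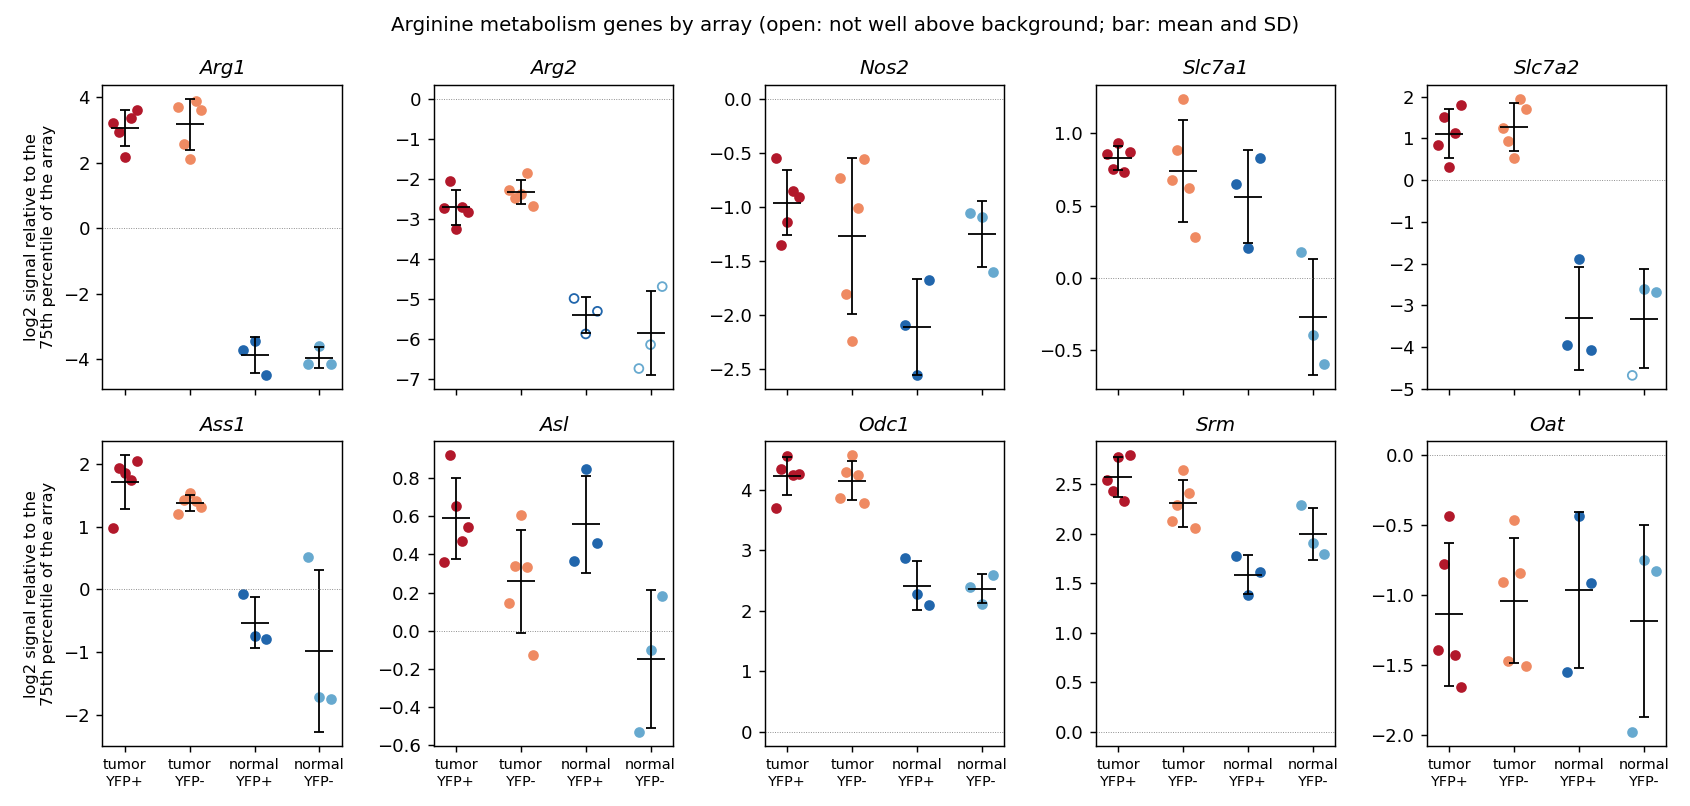
Log2 signal relative to the 75th percentile of the array for the 10 genes, 1 panel a gene with its own axis, tumor groups left of normal groups; each point is an array, open where it was not well above background, and bars are mean and SD. Arg1 separates by about 7 log2 units between tumor and normal arrays, Arg2 is not well above background on any normal array, and Asl and Oat overlap between tissues in both populations.

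Arg1, the cytosolic arginase of liver and of macrophages, was well above background on all 16 arrays. Its log2 signal was 3.21, 2.94, 2.17, 3.36 and 3.61 in tumor YFP+ arrays, against -3.72, -3.43 and -4.49 in normal YFP+ arrays. YFP- cells gave 3.68, 2.55, 2.11, 3.88 and 3.60 in tumor arrays, against -4.13, -3.59 and -4.15 in normal arrays. The lowest tumor array thus stood more than 5 log2 units above the highest normal array, and the spread among tumor arrays was small beside that gap. The difference was 6.94 ± 0.42 in YFP+ cells (SE, adjusted p = 1.18e-07) and 7.12 ± 0.42 in YFP- cells (adjusted p = 7.87e-08). Normal Arg1 signals lay not far above the lowest signal well above background on their arrays, nearest for number 23917. There they were -4.49 against -4.87 in YFP+ cells and -4.15 against -4.37 in YFP- cells. The size of the difference carries this limit, and it was 5.69 in YFP+ cells and 5.81 in YFP- cells in the lowest alternative. Tumor YFP- cells had the highest mean, then tumor YFP+ cells, and normal YFP- cells the lowest, after normal YFP+ cells; within each tissue the neighbours differed by less than the spread of their arrays. On the 3 slides that held a tumor and a normal array of YFP+ cells the difference was 6.37 to 7.32, and on the 3 such slides of YFP- cells 6.71 to 7.73.

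Arg2, the mitochondrial arginase, was higher in tumor in both populations, and normal arrays gave only an upper limit for it. The log2 signal was -2.74, -2.05, -3.24, -2.70 and -2.84 in tumor YFP+ arrays and -2.29, -2.48, -2.39, -1.86 and -2.68 in tumor YFP- arrays, all well above background. Normal arrays gave -4.99, -5.88 and -5.32 in YFP+ cells and -6.75, -6.15 and -4.70 in YFP- cells, none of them well above background. Every tumor array was above every normal one. Each normal array was then given its lowest signal well above background, or the probe's own signal where that was higher. Against these values mean Arg2 was 4.06-fold higher in tumor YFP+ cells than in normal YFP+ cells. For tumor YFP- cells over normal YFP- cells it was 4.86-fold higher. These are lower limits only under the background subtraction used here, and they carry no sampling error. The fitted log2 differences were 2.68 in YFP+ cells (adjusted p = 3.45e-04) and 3.53 in YFP- cells (adjusted p = 2.73e-05). They are no bound, since they depend on how background is handled. With normexp background correction they were 1.11 and 1.50, below the limits of 2.02 and 2.28 in log2 units. On single slides the fitted differences ran from 2.07 to 3.83 in YFP+ cells and from 2.22 to 4.07 in YFP- cells.

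Nos2, the inducible nitric oxide synthase, was well above background on all 16 arrays and higher in tumor in YFP+ cells, by a call that many alternatives ended. Its log2 signal was -0.55, -1.35, -1.14, -0.85 and -0.91 in tumor YFP+ arrays, against -2.09, -2.56 and -1.67 in normal YFP+ arrays. The YFP- cells gave -0.74, -1.80, -2.24, -1.01 and -0.56 in tumor arrays, against -1.06, -1.09 and -1.60 in normal arrays. Normal YFP+ arrays were thus the low group, and tumor YFP- arrays spread across the range of the other groups. The difference in YFP+ cells was 1.15 ± 0.35 (SE), 2.22-fold, with an adjusted p of 0.0478 at the edge of the threshold, and it passed in 7 of 16 alternative settings, with adjusted p from 0.0123 to 0.247. Leaving out any of the numbers 23547, 23551, 23677, 23912, 23916 or 23917 ended the call, with differences between 0.92 and 1.37. On single slides it was 0.54 to 1.20, and with slide as a block 0.96 (adjusted p = 0.0528). In YFP- cells the difference was -0.02, with a 95% interval of -0.77 to 0.74 (adjusted p = 0.978). Tumor YFP+ had the highest mean of the 4 groups, followed by normal YFP-, tumor YFP- and normal YFP+; the first 3 of these overlapped. Set side by side, the tissue differences of Arg1 and Nos2 were 6.94 and 1.15 in YFP+ cells and 7.12 and -0.02 in YFP- cells. These are changes of each probe against its own normal arrays, and no level of one probe is set against the other.

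The transporters of the y+ system, which bring arginine into the cell, parted. Slc7a2 (CAT2), the inducible member known to feed arginine to both enzymes in activated macrophages, gave 0.84, 1.52, 0.32, 1.12 and 1.80 in tumor YFP+ arrays, against -3.96, -1.89 and -4.08 in normal YFP+ arrays. Among YFP- cells the values were 1.25, 0.95, 0.53, 1.95 and 1.71 in tumor arrays, against -4.67, -2.60 and -2.67 in normal arrays, the first of which was not well above background. All tumor arrays were above all normal arrays, and the normal arrays varied more among themselves than the tumor arrays did. The difference was 4.43 ± 0.57 in YFP+ cells (SE, 21.5-fold, adjusted p = 1.31e-04) and 4.59 ± 0.57 in YFP- cells (24.1-fold, adjusted p = 7.57e-05), and 3.41 to 6.39 on single slides over both populations. Slc7a1 (CAT1), the widely expressed member, gave 0.86, 0.76, 0.93, 0.73 and 0.87 in tumor YFP+ arrays and 0.65, 0.21 and 0.83 in normal YFP+ arrays. Those groups overlapped, and the difference was 0.27 with a 95% interval of -0.22 to 0.75 (adjusted p = 0.550). Its YFP- values were 0.68, 0.89, 1.24, 0.62 and 0.28 in tumor arrays, against 0.18, -0.40 and -0.59 in normal arrays. These did not overlap, and Slc7a1 was 2.02-fold higher in tumor YFP- cells (log2 difference 1.01 ± 0.23, SE, adjusted p = 0.00707), with 0.10 to 1.48 on single slides. Without the number 23917 the difference was 0.85 and no longer passed (adjusted p = 0.0518). The normal YFP- group was the lowest of the 4 for Slc7a1, and the other 3 overlapped.

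Of the enzymes that rebuild arginine from citrulline, argininosuccinate synthase was higher in tumor and argininosuccinate lyase did not pass. Ass1, which joins citrulline and aspartate, gave 0.98, 1.95, 1.86, 1.74 and 2.05 in tumor YFP+ arrays, against -0.07, -0.74 and -0.80 in normal YFP+ arrays. Among YFP- cells Ass1 gave 1.21, 1.42, 1.55, 1.41 and 1.31 in tumor arrays, against 0.51, -1.72 and -1.74 in normal arrays. Tumor arrays again lay above normal ones without overlap, though the normal YFP- array of number 23912 stood more than 2 log2 units above the other normal YFP- arrays. The difference was 2.25 ± 0.42 in YFP+ cells (SE, 4.76-fold, adjusted p = 0.00236) and 2.36 ± 0.42 in YFP- cells (5.14-fold, adjusted p = 0.00149). Without number 23912 it was 2.48 in YFP+ cells and 3.11 in YFP- cells, and on single slides 2.12 to 2.69 and 0.80 to 3.17. Ass1 has a second probe, A_55_P2004781, placed by the header on chromosome 10, whereas the probe used lies on chromosome 2. Taken alone, each probe passed in both populations, with differences of 2.25 to 2.31 in YFP+ cells and 2.27 to 2.36 in YFP- cells. Asl, which releases arginine from argininosuccinate, lay between 0.36 and 0.92 in tumor YFP+ arrays and between 0.37 and 0.85 in normal YFP+ arrays, a difference of 0.03 with a 95% interval of -0.42 to 0.48 (adjusted p = 0.961). In YFP- cells it lay between -0.13 and 0.61 in tumor arrays and between -0.53 and 0.18 in normal arrays, a difference of 0.41 with an interval of -0.04 to 0.86 (adjusted p = 0.209).

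Odc1, the rate-limiting enzyme of polyamine synthesis, was higher in tumor in both populations. It gave 3.70, 4.35, 4.56, 4.25 and 4.26 in tumor YFP+ arrays, against 2.87, 2.27 and 2.10 in normal YFP+ arrays. For YFP- cells the signal was 3.86, 4.29, 4.57, 4.25 and 3.79 in tumor arrays, against 2.40, 2.11 and 2.58 in normal arrays. All tumor arrays exceeded all normal arrays, and the difference was 1.81 ± 0.24 in YFP+ cells (SE, 3.51-fold, adjusted p = 1.86e-04) and 1.79 ± 0.24 in YFP- cells (3.45-fold, adjusted p = 1.66e-04). Single slides gave 1.39 to 2.46 in YFP+ cells and 1.39 to 1.75 in YFP- cells. Of its 4 probes, the one used (A_55_P1995173) is placed by the header at chr12:117220135-117220194, away from the probe printed above, and the others on chromosomes X and 17. These 3 share runs of 22 to 46 bases with each other and none longer than 7 with the printed probe, so some of them may read copies of the gene elsewhere in the genome. Each of the 4 passed on its own, with differences of 1.36 to 2.49 in YFP+ cells and 1.35 to 1.91 in YFP- cells. For the printed probe alone, the mean was 1.42 ± 0.50 in tumor YFP+ arrays (SD, n = 5) and -0.49 ± 0.92 in normal YFP+ arrays (SD, n = 3). Its difference there was 1.91 (adjusted p = 0.0126). In YFP- cells its mean was 1.31 ± 0.61 in tumor arrays (SD, n = 5) and -0.19 ± 0.75 in normal arrays (SD, n = 3). These YFP- groups overlapped, with the lowest tumor array at 0.57 and the highest normal array at 0.66. The difference in YFP- cells was 1.50 (adjusted p = 0.0380).

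**Figure D3:**
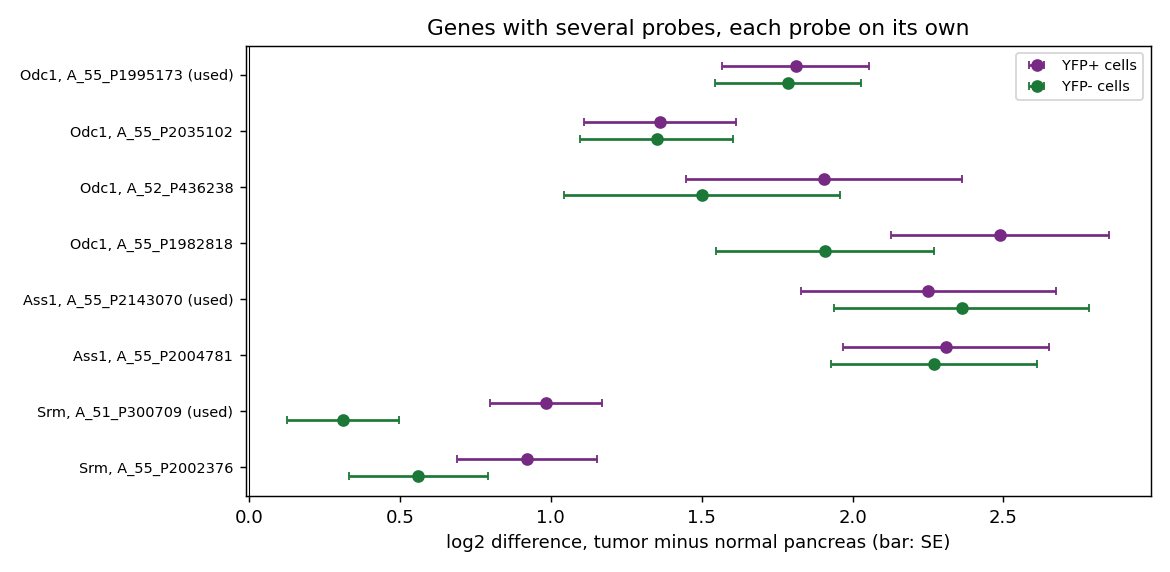
Log2 difference, tumor minus normal pancreas, of each probe of the genes with several probes, with its SE, for YFP+ and YFP- cells; the probe used is marked. All 4 Odc1 probes lie between 1.35 and 2.49 and both Ass1 probes between 2.25 and 2.36, while the Srm probes are nearer to 0 in YFP- cells.

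Srm, spermidine synthase, gave 2.54, 2.43, 2.78, 2.33 and 2.79 in tumor YFP+ arrays, against 1.78, 1.38 and 1.61 in normal YFP+ arrays. The groups did not overlap, and Srm was 1.98-fold higher in tumor YFP+ cells (log2 difference 0.99 ± 0.19, SE, adjusted p = 0.00243), with 1.02 to 1.17 on single slides. Among YFP- cells Srm gave 2.13, 2.29, 2.65, 2.41 and 2.06 in tumor arrays and 2.29, 1.90 and 1.79 in normal arrays, which overlapped. The difference there was 0.31 with a 95% interval of -0.09 to 0.71 (adjusted p = 0.276). Its second probe made the same calls, at 0.92 in YFP+ cells and 0.56 in YFP- cells. Oat, ornithine aminotransferase, ranged from -1.66 to -0.43 in tumor YFP+ arrays and from -1.55 to -0.43 in normal YFP+ arrays. Among YFP- cells Oat ranged from -1.51 to -0.47 in tumor arrays and from -1.98 to -0.75 in normal arrays. Its differences were -0.17 with an interval of -0.97 to 0.63 in YFP+ cells (adjusted p = 0.862) and 0.15 with an interval of -0.65 to 0.94 in YFP- cells (adjusted p = 0.813). Of the steps after ornithine, the polyamine enzyme Odc1 was thus higher in tumor in both populations, while Oat passed in neither.

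The comparison of YFP+ with YFP- macrophages asks whether cells with and without the progenitor label differ. In tumors none of the 10 genes passed, against 2.39% of all genes, and at an unadjusted p under 0.05 there were none of the 10 and 2503 of the 24278 genes. The differences ran from -0.38 for Arg2 to 0.34 for Ass1. For Arg1 the difference, YFP+ minus YFP-, was -0.11 with a 95% interval of -0.89 to 0.67, for Nos2 0.31 with an interval of -0.35 to 0.96, and for Odc1 0.07 with an interval of -0.38 to 0.52. These intervals do not show that the populations are alike. Asl differed by 0.33 with an interval of -0.06 to 0.72 (adjusted p = 0.606, unadjusted p = 0.0901). Between arrays with the same number, Asl was higher in the YFP+ array in 5 of 5 tumor numbers, by 0.05 to 0.67, and in 3 of 3 normal numbers, by 0.27 to 0.95. It was the member with 1 direction throughout both tissues, a pattern picked out after the values were seen. The numbers are not shown to pair the samples, and the share of all genes with such a pattern was not computed. The pattern is therefore no result about Asl. Fibroblast and epithelial markers were lower, and B or plasma cell markers higher, in the tumor YFP+ arrays of this comparison, as the sums above show.

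In normal pancreas, too, none of the 10 passed, against 0.0206% of all genes (5 genes), with 3 of the 10 and 1854 of all genes at an unadjusted p under 0.05. Those 3 were Slc7a1, at 0.83 with an interval of 0.29 to 1.37 (adjusted p = 0.302), Asl, at 0.71 with an interval of 0.20 to 1.21 (adjusted p = 0.371), and Nos2, at -0.86 with an interval of -1.70 to -0.01 (adjusted p = 0.645). YFP+ and YFP- arrays did not overlap for 4 of the 10, with YFP+ higher in Slc7a1 and Asl and lower in Nos2 and Srm, against 6.39% of all genes higher and 6.84% lower in this way. With estimated array weights the first 2 passed the threshold. For Arg1 the difference was 0.08 with an interval of -0.93 to 1.09. Whether the YFP difference itself depends on tissue was tested as an interaction, in which none of the 10 passed, against 0.103% of all genes (25 genes), with 3 of the 10 and 1450 of the 24278 genes at an unadjusted p under 0.05. These were Nos2 (1.17 ± 0.50, SE, adjusted p = 0.790), Slc7a1 (-0.74 ± 0.32, adjusted p = 0.793) and Srm (0.67 ± 0.26, adjusted p = 0.714). Hence the calls of Nos2 and Srm in YFP+ cells only, and of Slc7a1 in YFP- cells only, are not shown to differ between the populations.

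**Figure D4:**
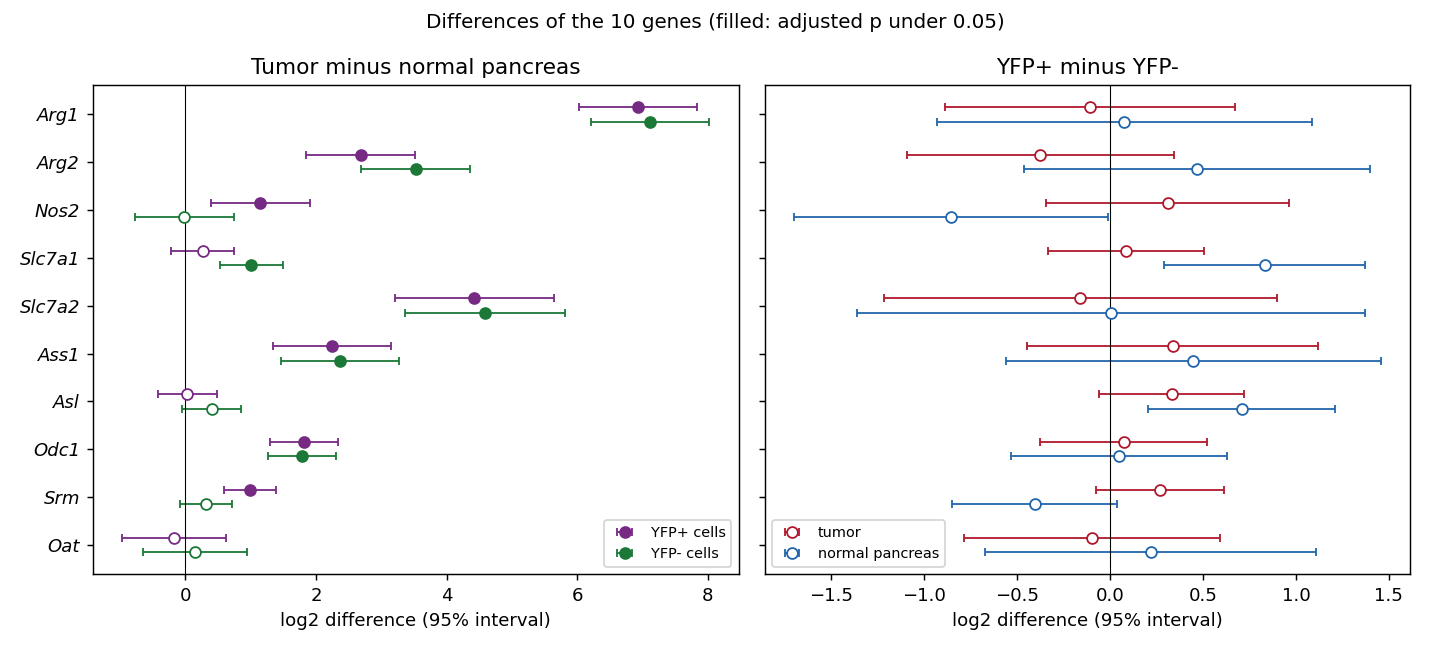
Log2 differences of the 10 genes with 95% intervals, tumor minus normal pancreas on the left and YFP+ minus YFP- on the right, filled where the adjusted p was under 0.05. Arg1, Arg2, Slc7a2, Ass1 and Odc1 are filled in both populations on the left, and no gene is filled on the right.

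Around these 10 genes, 77 further genes of arginine handling were listed by function, again with earlier results known, and 73 of them were tested. Otc, Slc25a15 and Slc25a2 were too dim, and Amd1 had no probe under that name. Among YFP+ cells 7 of the 73 were higher and 5 lower in tumor, against 6.03% higher and 6.06% lower of all genes. Among YFP- cells 11 were higher and 3 lower, against 8.03% and 7.74% of all genes. Their median difference was 0.18 in YFP+ cells and 0.14 in YFP- cells, and none of the 7 lists had most of its genes called.

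Among regulators of Arg1 or Nos2 transcription, 3 of 16 were higher and 2 lower in tumor YFP+ cells, and 4 were higher and 1 lower in tumor YFP- cells. Hif1a, the oxygen-sensitive subunit of a factor that drives glycolytic and other hypoxia genes, averaged -0.57 ± 0.60 in tumor YFP+ arrays (SD, n = 5) and -2.78 ± 0.85 in normal YFP+ arrays (SD, n = 3), a difference of 2.21 (adjusted p = 0.00168). In YFP- cells its difference was 2.77 (adjusted p = 2.54e-04). Cebpb, a factor known to act on the Arg1 enhancer, was higher by 1.15 in YFP+ cells (adjusted p = 0.00586) and by 1.82 in YFP- cells (adjusted p = 1.47e-04). Il4ra, the receptor chain for interleukin-4 and interleukin-13, averaged 5.41 ± 0.07 in tumor YFP+ arrays and 4.51 ± 0.14 in normal YFP+ arrays, and was higher by 0.90 there (adjusted p = 0.00231) and by 0.94 in YFP- cells (adjusted p = 0.00158). The remaining calls of this list, named after their values were seen, were Stat3, higher by 0.72 in YFP- cells, Stat6, at -0.59 in YFP+ cells, and Irf1, at -0.64 in YFP+ and -0.58 in YFP- cells. Of 16 alternatives, Stat6 passed in 10 and Irf1 in 11 for YFP+ cells and in 9 for YFP- cells.

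Of the 9 further transporters, 2 were higher and 1 lower in each population. Slc3a2, the heavy chain that the y+L light chains need to reach the membrane, was 1.99-fold higher in YFP+ cells (adjusted p = 0.00297) and 1.69-fold higher in YFP- cells (adjusted p = 0.0149, and 0.0800 without number 23912). Atp13a3, a polyamine transporter, was higher by 0.75 in YFP+ cells and by 0.93 in YFP- cells. The first call passed in 6 of 16 alternatives, and the second was lost without number 23916 or 23917 (adjusted p up to 0.0872). Slc18b1, a vesicular polyamine transporter, averaged -6.57 ± 0.63 in tumor YFP+ arrays, none well above background, and -2.67 ± 0.98 in normal YFP+ arrays. Its fitted log2 difference was -3.90 in YFP+ cells (adjusted p = 0.00344). Taken as for Arg2, with the limit on the tumor arrays, it was 4.63-fold lower in tumor YFP+ cells. In YFP- cells 1 tumor array of 5 measured it (log2 difference -3.80, adjusted p = 0.00375). With normexp background correction the fitted differences were -1.34 and -1.36 and no longer passed. The 4.63-fold is therefore a limit only under the background subtraction used here. Of the 12 other polyamine genes, Smox, spermine oxidase, was higher by 1.01 in YFP+ cells (adjusted p = 0.00212) and by 1.14 in YFP- cells (adjusted p = 7.93e-04). Eif5a, the only known protein that receives hypusine from spermidine, was higher by 0.84 in YFP- cells, a call that passed in 7 of 16 alternatives. None of the 12 was lower.

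In the nitric oxide list of 11 genes, Ddah2 was at -0.74 in YFP+ cells, a call that passed in 5 of 16 alternatives, and Gch1, named after its values were seen, the first enzyme of the cofactor tetrahydrobiopterin, was higher by 0.81 in YFP- cells, a call that passed in 10 of 16. Of the 4 tested genes in the list of arginine synthesis and the urea cycle (Cps1, Nags, Azin2 and Agmat) none passed in either population. Ass1 and Asl are not in that list, being among the 10 genes above. Among 15 genes of arginine methylation, creatine and sensing, Prmt2, a protein arginine methyltransferase, was at -1.51 in YFP+ cells (adjusted p = 0.00250). In YFP- cells the arginine sensor Castor1 was higher by 2.95 (adjusted p = 0.0155), with 1 of 3 normal arrays well above background. That call was lost with slide as a block and without number 23916 (adjusted p up to 0.0905), and the difference was 1.40 in the lowest alternative. The creatine transporter Slc6a8 was higher by 1.67 in YFP- cells (adjusted p = 0.0225), a call lost without number 23551, 23912 or 23916 (adjusted p up to 0.100). Gamt, the last enzyme of creatine synthesis, was at -0.81 in YFP- cells (adjusted p = 0.0167), a call lost without number 23551, 23916 or 23917 (adjusted p up to 0.103). Between the populations, 1 of the 73 genes passed in tumors and none in normal pancreas or in the interaction. That gene was Ddah1, which degrades the nitric oxide synthase inhibitor asymmetric dimethylarginine. It averaged -3.98 ± 0.25 in tumor YFP+ arrays and -1.78 ± 0.82 in tumor YFP- arrays (SD, n = 5 each), a difference of -2.20 (adjusted p = 0.00133). Fibroblast and epithelial markers differed in the same direction between these arrays, and their part in it was not tested.

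**Figure D5:**
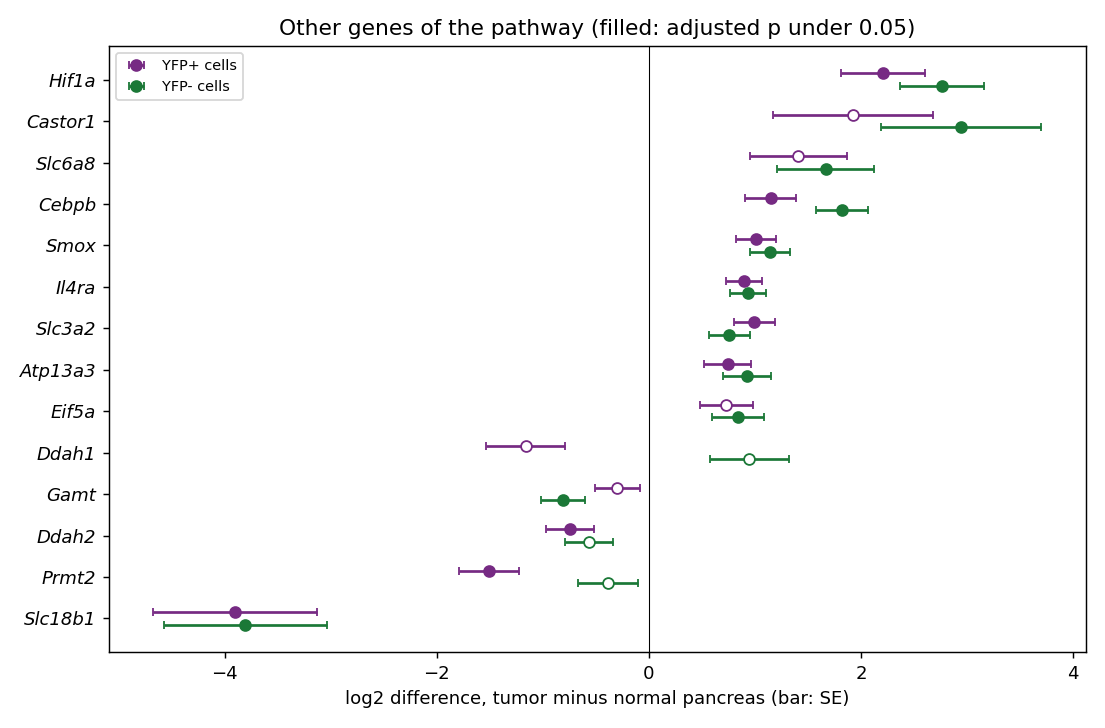
Log2 difference, tumor minus normal pancreas, with SE, of other pathway genes named in the text, for YFP+ and YFP- cells, filled where the adjusted p was under 0.05. Hif1a, Cebpb, Smox, Il4ra, Slc3a2 and Atp13a3 are filled above 0 in both populations and Slc18b1 is filled below 0 in both.

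Among the tested genes whose signal followed Arg1 most closely over the 16 arrays were Nt5e, the ectonucleotidase that makes adenosine (Pearson r = 0.993), Gsr, glutathione reductase (0.992), the metalloprotease Adamdec1 (0.989) and Fam71f2 (0.989). These values describe 16 arrays that share slides and numbers and fall into tumor and normal arrays, so they describe that split as well. Over the 10 tumor arrays these 4 had r of 0.35 to 0.78 with Arg1. Nt5e was well above background on all 10 tumor arrays and on no normal array. Taken as for Arg2, and with the same limits, it was 11.65-fold higher in tumor YFP+ cells than in normal YFP+ cells. For tumor YFP- cells over normal YFP- cells it was 11.52-fold higher. The fitted log2 differences were 5.73 in YFP+ cells (adjusted p = 1.57e-08) and 5.71 in YFP- cells (adjusted p = 1.57e-08). Fam71f2, too, was not well above background on any normal array. For Nos2 the 5 most alike were Raet1a (0.898), Gm6116 (0.863), Olfr1412 (0.861), Gla (0.855) and Nav2 (0.854). Over the 16 arrays no gene thus followed Nos2 as closely as the 4 named genes followed Arg1. Over the 10 tumor arrays the 5 genes had r of 0.79 to 0.88 with Nos2. Both sets were picked by r over all 16 arrays, which include these 10, so the r values in tumor arrays are no separate test. They do not rank Nos2 against Arg1, since the genes picked for Arg1 follow the split into tumor and normal arrays. Of these 5 genes, Raet1a and Olfr1412 were not well above background on any normal array, and only in part on tumor arrays. Raet1a was well above background on 3 of 5 tumor YFP+ and 2 of 5 tumor YFP- arrays, and Olfr1412 on 4 and 2. Their r values thus rest partly on signals near background.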

How the data were processed

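Per the labels' protocols, macrophages were sorted by FACS into lysis buffer, and their RNA was amplified to cDNA (Sigma WTA2) and given a Cy5 label by the Kreatech ULS chemistry. Per the file headers, spots were quantified by Agilent Feature Extraction 11.5.1.1 in red only, giving a processed intensity that was background subtracted and spatially detrended within the array, with a surrogate value for 14.6% to 24.1% of spots. The deposited value table holds log2 values. Its sorted columns differ by at most 0.0069, their median is 9.02, and each correlates at 0.995 or more with its own array (across probes, which are not independent replicates); its method is not given in the sources used here, and it served as an alternative.

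Control spots and 140 to 353 outlier spots per array were left out and spots of a probe averaged. log2 of the processed signal was taken relative to the 75th percentile of each array. Probes well above background on at least 3 of 16 arrays were kept (30566), 254 with missing values were left out, and the probe with the highest mean was used for each of 24278 genes, 4955 of which had several. Other probes than those of the 10 genes were named through RefSeq where an accession or symbol matched. The number of arrays limits the precision.

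A model of 4 group means was fitted with limma 3.58.1 (R 4.3.3; lmFit and eBayes, two-sided) and tested on simulated data. The 10 genes are named whatever their values, with at most 10 other pathway genes past the threshold per comparison, by size, and the 5 genes most like Arg1 and Nos2, less a few that are not reported here; Stat3, Stat6, Irf1, Gch1 and, for YFP- cells, Slc3a2 lie beyond the 10 and were added after their values were seen. Members and lists were chosen with earlier results of these data known. Alternatives were normexp background correction (offset 50), quantile normalization, the deposited log2 values, filters on dim probes, slide or number as a block, array weights and leaving out each number. Each slide is a batch and holds several groups.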

Additional observations from a re-analysis of the deposited data

How the results depend on the processing

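Of 208 recomputed values of gene differences that passed the threshold, 198 passed again with the same sign, 10 no longer passed (9 for Nos2 in YFP+ cells between tumor and normal, 1 for Slc7a1 in YFP- cells between tumor and normal) and 0 were reversed. Among 622 recomputed values of differences that had not passed, 49 had the other sign without passing, none of them above 0.370 in size, and 3 passed, all with array weights (Srm in YFP- cells between tumor and normal, Slc7a1 and Asl between YFP+ and YFP- cells of normal pancreas). Of 27 calls of other pathway genes, 13 held under every alternative run and 0 changed sign. The difference of Arg1 ranged from 5.69 to 7.16 in YFP+ cells and from 5.81 to 7.46 in YFP- cells. Over all genes, the number past the threshold between tumor and normal moved with array weights to 4467 in YFP+ cells, against 2936, and to 9225 in YFP- cells, against 3829. Leaving out 1 number gave 1901 to 2594 in YFP+ cells and 2225 to 4572 in YFP- cells. In these runs 6 to 7 and 5 to 6 of the 10 genes passed. Counts were lowest without the normal numbers 23916 (1933 in YFP+ and 2225 in YFP- cells) and 23917 (1901 and 2461), where 2 normal arrays of each population remain. As many remain without the normal number 23912, which gave 2532 and 3656. Between YFP+ and YFP- cells of tumors the number of genes past the threshold was 580, and 357 to 653 without 1 number, lowest without 23550, 23677 and 23551 (357, 370 and 379). Between YFP+ and YFP- cells of normal pancreas it was 5, with 0 under normexp, 16 under quantile normalization, 15 with the deposited values, 10 without a filter, 2 with slide as a block and 1165 with array weights (2 of the 10 genes), and 0 to 222 without 1 number, the highest without 23912. The interaction gave 25, with 9 under slide as a block and 358 with array weights, and 8 to 42 without 1 number, the highest without 23912. As the check of pairing, arrays with the same number had deviations from their group means that correlated between -0.290 and 0.314, so the numbers are not shown to pair the samples. With number as a fixed replicate block, 599 genes passed between tumor YFP+ and YFP- cells, 0 between normal YFP+ and YFP- cells and 16 in the interaction. With a random replicate block (correlation 0.0283), 2953, 3843, 613, 6 and 30 genes passed in the comparisons in the order above, and neither block changed a call of the 10 genes. A fixed block could not be fitted for tumor against normal, since each number lies in 1 tissue. The cause of these changes was not tested. Signal over background limits Arg2, Slc7a2 and Slc18b1 to bounds or partial measurement in the dim groups. Arg1 was measured on every normal array but near that limit, which makes its fold size less certain.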

Other observations

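Among tumor samples, the arrays of number 23550 stood at an end of the group for several of these genes in both populations, a pattern picked out after the values were seen. They had the lowest Arg1 signal among tumor YFP+ arrays (2.17) and among tumor YFP- arrays (2.11). Slc7a2 was likewise lowest there, at 0.32 in YFP+ and 0.53 in YFP- cells. Odc1 was highest there, at 4.56 and 4.57, Slc7a1 at 0.93 and 1.24, and Oat at -0.43 and -0.47. The arrays lay on different slides, 3 for YFP+ and 1 for YFP- cells. Over all genes the deviations of these arrays from their group means correlated at 0.0566 (across genes, which are not independent replicates), and with 5 numbers no correlation between populations is given. Arg2, Nos2, Ass1, Asl and Srm did not stand at an end in both populations for number 23550. The share of all genes that did was not computed.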
